A study of Mus musculus with 18 samples.

Results

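Axon guidance ligands and receptors were followed in sorted cells of the newborn mouse retina in which Nmnat1 or Nmnat2 had been knocked down or overexpressed. The genes were chosen by type and name alone: protein-coding genes whose symbols belong to the class 3 to 7 semaphorins, the plexins, the neuropilins, the ephrins and Eph receptors, the Slits and Robos, or the netrins, netrin-Gs, Unc5 receptors and Dcc. The rule found 72 genes among 34385 genes in the knockdown table and the same 72 among 34396 genes in the overexpression table. Of these, 36 encode ligands and 34 encode receptors. The other 2, Unc50 and Unc5cl, match by name only: Unc50 encodes a protein of the Golgi and inner nuclear membrane, Unc5cl a death domain protein related to the Unc5 receptors, and neither is a netrin receptor.

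The libraries came from retinas of ICR mice, electroporated at postnatal day 0.5 and kept as explants for 3 days. The knockdown table held 3 libraries each of cells given an Nmnat1 knockdown plasmid, an Nmnat2 knockdown plasmid or a scramble plasmid. The overexpression table held 3 libraries each of cells given an Nmnat1 plasmid, an Nmnat2 plasmid or the empty vector. All 6 groups, controls included, carried an EGFP plasmid and had been electroporated, cultured and sorted for EGFP. The sorted cells are the mixture of retinal cells that took up plasmid, so the libraries are bulk samples in which fewer cells of a type and less RNA per cell cannot be told apart. Cell identity was not selected for beyond EGFP, and the labels do not tie the 3 libraries of a group to separate animals or litters. The p-values below therefore weigh differences against a spread that may be technical. NMNAT enzymes make NAD: NMNAT1 is the nuclear form, and NMNAT2 sits on the Golgi and on axonal vesicles.

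Guidance cues attract or repel the tips of growing neurites. Class 3 semaphorins are secreted and signal through neuropilins and plexins, most other semaphorins are membrane-bound and act on plexins, ephrins and Eph receptors signal between touching cells, Slits repel through Robo receptors, and netrins act through Dcc and the Unc5 receptors. In the retina these families guide ganglion cell axons to the optic nerve head and through their visual targets, and transmembrane semaphorins and plexins confine the neurites of inner retinal neurons to their layers.

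Levels are given in ppm, a gene's share of its library's summed signal multiplied by 1000000. The deposited signal is scaled by transcript length, so levels can be compared between genes. Judged from the steps between low values, 1 ppm rested on 12.7 to 21.1 reads per 1 kb of effective length in the knockdown libraries. In the overexpression libraries it rested on 11.5 to 16.9 reads. Effective length is transcript length less a fitted offset of 240 to 320 bases, so a 1 kb transcript held fewer reads. Nmnat1 was at 7.37, 8.54 and 7.49 ppm in Nmnat1 knockdown libraries, against 19.1, 20.9 and 17 ppm in scramble libraries, without overlap (exact two-sided permutation p = 0.1, the smallest that 3 against 3 allows). Nmnat2 was at 1.27, 1.01 and 0.503 ppm in Nmnat2 knockdown libraries, against 6.22, 0.624 and 2.03 ppm in scramble libraries, and these overlap (exact two-sided permutation p = 0.3). The overexpressed genes reached 14797 to 27832 ppm (Nmnat1) and 20911 to 22818 ppm (Nmnat2), against means of 20.8 and 1.89 ppm in empty vector libraries.

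Some libraries stood apart before any comparison. The second Nmnat2 knockdown library had 6.51% of its signal in mitochondrial genes, against 2.29% to 4.67% in the other 8 libraries of its table. It was the lowest of its group in 49 of the 65 guidance genes that reached 1 ppm in that group. Its summed ligands stood at 289.9 ppm, against 832 and 867 ppm in the other 2 libraries of the group, and its summed receptors at 482 ppm, against 1040.3 and 1110.0 ppm. In the overexpression table the first Nmnat2 overexpression library was lowest of its group in 43 of 66 such genes and the first Nmnat1 overexpression library in 31 of 65, while the first empty vector library was lowest in 22 of 65. On the first principal component of that table, with 35.5% of the variance, the 3 libraries numbered 1 lay on one side. The first Nmnat1 knockdown library was lowest of its group in 38 of 67 genes; it did not stand apart on the first component of its table, where the second Nmnat2 knockdown library did. Each comparison below is therefore given with all libraries and without these: the second Nmnat2 knockdown library, or the 3 libraries numbered 1 in the overexpression table, empty vector included, so that the numbers stay balanced. The counts of lowest genes use the guidance genes' own values, and no such count over all genes was made. Leaving out a library in which most members are lowest raises its group. Calls made without these libraries are therefore not independent of the choice of libraries.

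Across the 18 libraries, 64 of the 72 genes averaged at least 1 ppm, 36 at least 10 ppm (17 ligands, 18 receptors and Unc50) and 5 at least 100 ppm. The median guidance gene stood at 8.68 ppm in the knockdown table and 9.56 ppm in the overexpression table, against 4.55 and 4.46 ppm for all protein-coding genes. Guidance genes above 50 ppm were fewer than among protein-coding genes at large, with 11.1% against 17.4% in the knockdown table and 15.3% against 18.9% in the overexpression table. These are descriptions without a test.

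Within most ligand families a single gene carried the signal. Sema3f, a secreted semaphorin that acts through neuropilin-2, averaged 229 ppm over 18 libraries, the highest level of the 72 genes, and made up 85.4% of the class 3 sum in scramble and 94.8% in empty vector libraries. Slit2 made up 79.9% and 81.5% of the Slit sum in those controls, Ntn4, a laminin-binding netrin, 92.6% and 97.2% of the netrin sum, and Ntng2, a membrane-anchored netrin-G that binds no Dcc, 97.0% and 99.3% of the netrin-G sum. Ntn1, the main ligand of Dcc, stayed at or below 0.778 ppm in every library. The ephrins and the class 4 to 7 semaphorins were more even: Efnb2 held 35.6% and 42.2% of the ephrin-B sum, Efna2 51.4% and 54.8% of the ephrin-A sum, and Sema5b, the highest of its class, only 15.1% and 18.5%.

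Receptor families differed in the same way. Nrp1, the co-receptor of Sema3a, held 88.1% of the neuropilin sum in scramble and 91.9% in empty vector libraries, and Robo2, a Slit receptor, 60.3% and 63.9% of the Robo sum. Epha8 and Epha5 led the EphA receptors, with means over 18 libraries of 146 and 88.4 ppm. Plxnb2, a receptor of class 4 semaphorins, averaged 121 ppm, ranging from 83.7 to 179.5 ppm. The upper end of the order was Sema3f, Unc50, Epha8, Robo2 and Plxnb2, and the ranges of neighbours in it overlap. The lowest were Plxnb3, Ntn5 and Ntn1, all under 0.3 ppm on average. Robo4, an endothelial Robo, averaged 0.467 ppm. Other listed endothelial markers differed widely in level: Cdh5 stood between 0.0771 and 6.47 ppm, and Kdr between 7.81 and 119.7 ppm.

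**Figure D1:**
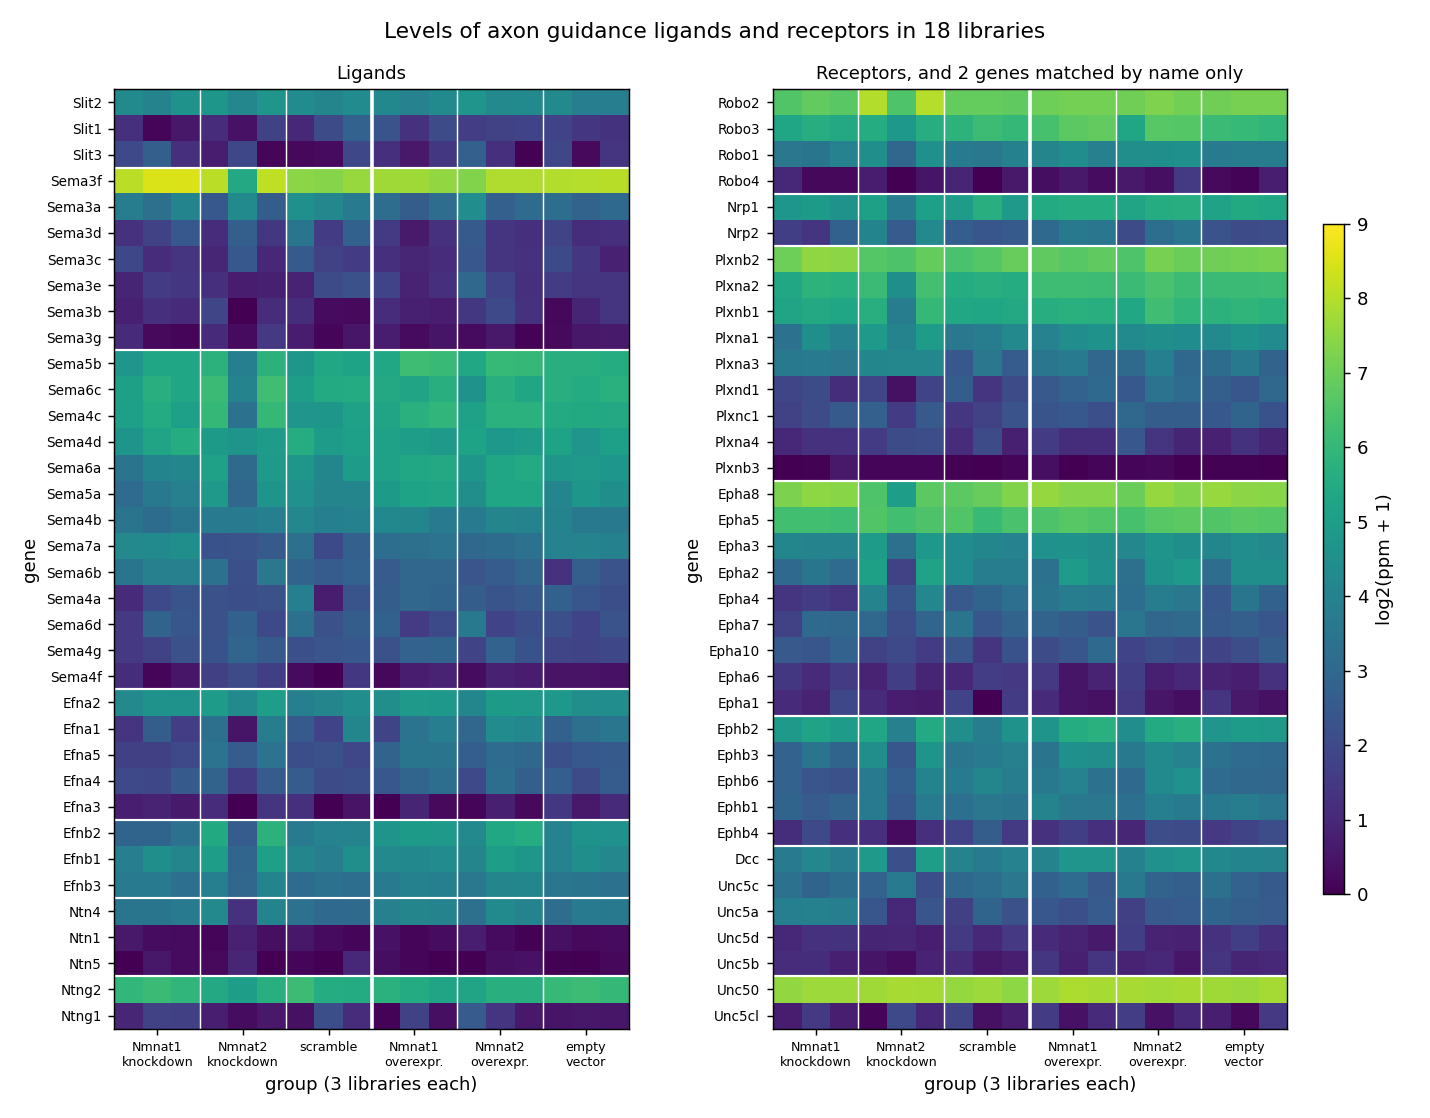
Level of each of the 72 genes (rows, grouped by family, ligands left and receptors right) in each of 18 libraries (columns, 3 per group), as log2(ppm + 1) by colour. Sema3f, Epha8, Robo2, Plxnb2 and Unc50 are the brightest rows, and the second Nmnat2 knockdown library appears as a darker column in most of the expressed genes.

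A gene was tested if 3 or more of the 9 libraries in its table held it at 1 ppm or above. That left 68 of the 72 genes for the knockdowns and 65 for overexpression. Robo4, Ntn1, Ntn5 and Plxnb3 failed in both, and Sema4f, Efna3 and Sema3g in the overexpression table only. Fold changes come from limma on log2(ppm + 1), fitted on all genes of a table, with p adjusted by Benjamini-Hochberg over all of them and called below 0.05. They understate the change of low genes.

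In Nmnat1 knockdown libraries Sema7a and Unc5a lay above scramble and the Eph receptors Epha4 and Ephb6 below it, each without overlap between libraries. With all 9 libraries in the fit, however, 0 of 68 members were called. The share called among all 22233 genes tested was 0.144%. At an unadjusted p below 0.05 there were 9 members. Members had a median log2 fold change of -0.04, against -0.00 over all genes.

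Sema7a, a membrane-anchored semaphorin that signals through integrins and plexin C1, stood at 17.6, 18.9 and 21.5 ppm in Nmnat1 knockdown libraries, against 9.01, 3.01 and 5.82 ppm in scramble libraries. All 3 knockdown values lay above the highest scramble value. The log2 fold change was 1.64 ± 0.36 (SE), with a limma adjusted p of 0.130. Among other ligands, Sema3f was at 269.8, 359.6 and 366 ppm in Nmnat1 knockdown libraries, against 171, 162 and 193 ppm in scramble libraries, again without overlap. Sema6b, a transmembrane ligand of class A plexins, was at 10.3, 14.1 and 14 ppm against 6.34, 5.14 and 6.04 ppm in scramble libraries. Efnb2, a transmembrane ephrin, lay the other way, at 6.54, 6.49 and 9.44 ppm in Nmnat1 knockdown libraries and 12.1, 15 and 15.1 ppm in scramble libraries.

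Among receptors, Unc5a, which mediates repulsion by netrin, was at 13.8, 14.4 and 13.4 ppm in Nmnat1 knockdown libraries, against 2.24, 6.53 and 3.69 ppm in scramble libraries. The 3 knockdown libraries were close together and all above scramble, with a log2 fold change of 1.61 ± 0.46 (SE) and a limma adjusted p of 0.235. Ephb6, an Eph receptor without kinase activity, was at 6.05, 4.20 and 3.65 ppm in Nmnat1 knockdown libraries, against 12.3, 16.7 and 12.9 ppm in scramble libraries. The groups do not overlap, the log2 fold change was -1.42 ± 0.38 (SE) and the limma adjusted p was 0.214. Epha4, which binds ephrins of both classes, was at 1.62, 1.96 and 1.64 ppm in Nmnat1 knockdown libraries, the 3 lowest values of the 9 libraries in the table, against 4.74, 6.55 and 8.66 ppm in scramble libraries. Plxnb2 was higher in Nmnat1 knockdown, at 128, 179.5 and 170.3 ppm against 83.7, 97.8 and 118 ppm in scramble libraries. Dcc, the netrin receptor that mediates attraction, overlapped between groups, with 12.1, 16.7 and 13.2 ppm in Nmnat1 knockdown and 15.4, 11.9 and 15 ppm in scramble libraries.

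Groups did not overlap for 19 of the 68 members, 9 of them higher in Nmnat1 knockdown and 10 lower, which is 27.9% against 24.8% of all genes tested (12.8% higher and 12% lower). The higher ones were Sema3f, Sema6b, Sema7a, Ntn4, Unc5a, Plxna3, Plxnb2, Epha10 and Ephb2. The lower ones were Sema4b, Sema5a, Sema6a, Efnb2, Epha2, Epha4, Ephb1, Ephb3, Ephb6 and Robo3, so that 3 of the 5 EphB receptors and 2 of the 9 EphA receptors lay on the lower side. The Unc50 values overlapped, at 184, 205 and 206 ppm in Nmnat1 knockdown and 189.7, 204 and 175 ppm in scramble libraries.

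Leaving the second Nmnat2 knockdown library out of the shared fit changes no value of these 2 groups, but it lowers the estimated spread. In that fit 9 of 68 members were called, against 8.11% of all genes (4.61% higher and 3.49% lower). The 5 that rose were Sema3f, with a log2 fold change of 0.91 ± 0.12 (SE), Sema6b (1.00), Sema7a (1.64), Unc5a (1.61) and Plxnb2 (0.67). The 4 that fell were Epha4, by 1.45 on the log2 scale, Ephb6 (-1.42), Efnb2 (-0.84) and Robo3 (-0.53). The summed level of 16 Müller glia and progenitor markers also moved, at 2646 to 2788 ppm in Nmnat1 knockdown against 5127 to 5801 ppm in scramble libraries. With all libraries 1 of the 15 markers tested fell and 0 rose, and in the fit without that library 11 fell and 0 rose. Most of the sum was Apoe, with means of 1933 ppm in Nmnat1 knockdown and 3910 ppm in scramble libraries. The sum was below scramble in Nmnat2 knockdown too, at 3826, 2232 and 3702 ppm. There 2 markers fell and 0 rose with all libraries, and 4 fell and 4 rose without the second Nmnat2 knockdown library. Amacrine and horizontal cell markers summed to 229 to 265 ppm in Nmnat1 knockdown against 321 to 345 ppm in scramble libraries. Calb2 was lower in Nmnat1 knockdown, with means of 15.2 against 91.4 ppm, and Slc6a9 was higher, with 167 against 133 ppm. Of 12 tested, 1 fell with all libraries and 3 without the second Nmnat2 knockdown library, and 0 rose. Ganglion cell markers summed to 52.9 to 66.5 ppm in Nmnat1 knockdown against 36.2 to 89.0 ppm in scramble libraries. The ganglion cell factor Pou4f2 stayed at or below 0.538 ppm in the 9 libraries. Other ganglion cell markers differed in direction. Means in Nmnat1 knockdown against scramble were 17.3 against 5.50 ppm for Isl2 and 17.7 against 8.39 ppm for Atoh7. They were 2.29 against 9.32 ppm for Ebf3 and 2.88 against 16.0 ppm for Thy1. The highest Thy1 value of the 9 libraries was 45.2 ppm, in a scramble library, so its scramble mean rests largely on 1 library. With all libraries 0 of 12 tested ganglion cell markers were called. The single markers named here were picked out after their values were seen. The part of these cell types in the guidance gene values was not tested.

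**Figure D2:**
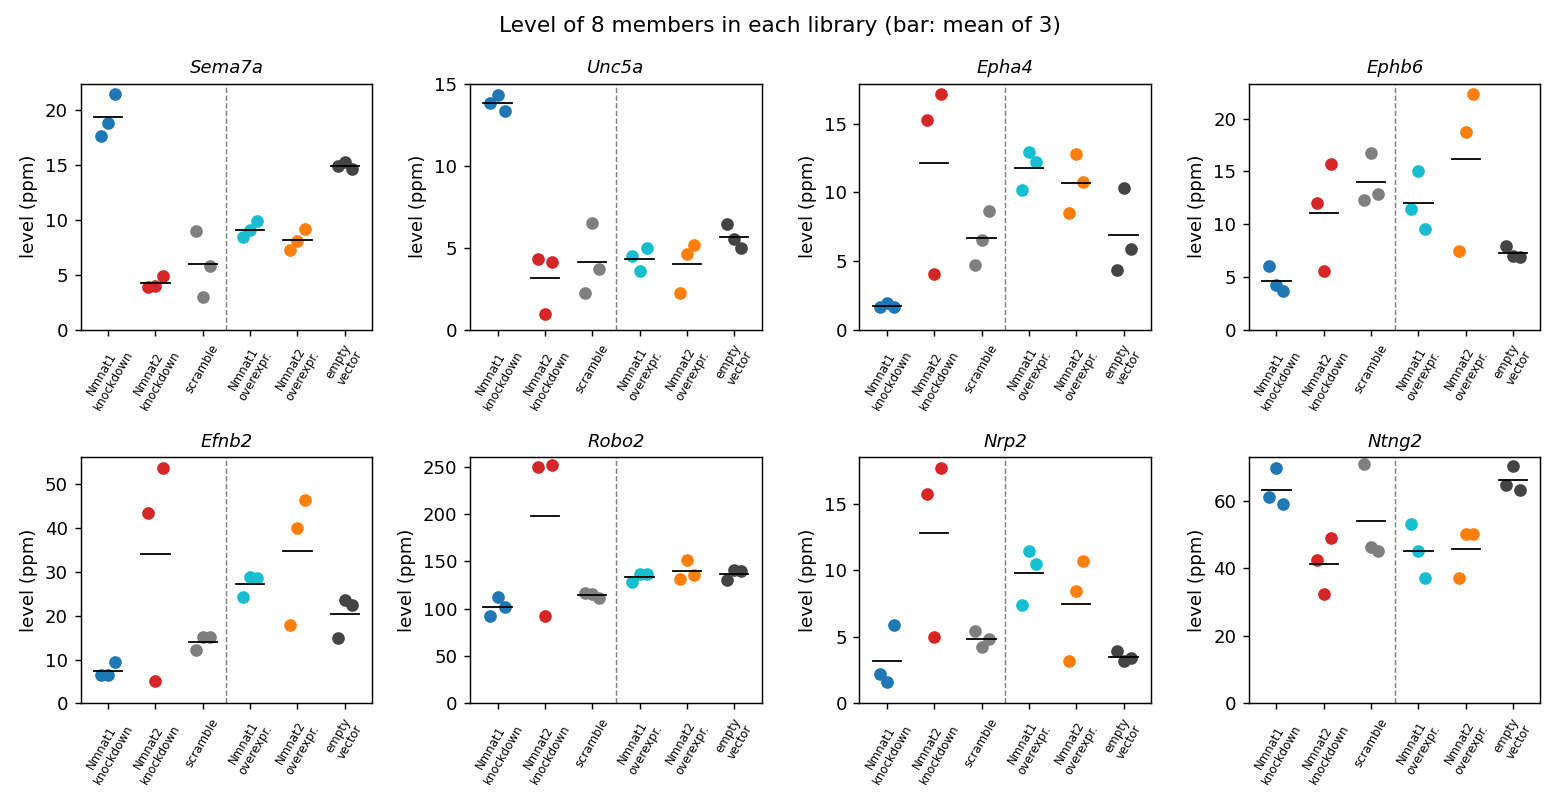
Level in ppm (y axes, from 0) of 8 members in each library, by group (x axes, knockdown table left of the dashed line, overexpression table right of it), with a bar at the mean of 3 libraries. Sema7a and Unc5a lie above all other knockdown-table libraries in Nmnat1 knockdown and Epha4 below them, while Efnb2, Robo2 and Nrp2 are high in 2 of the 3 Nmnat2 knockdown libraries.

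In Nmnat2 knockdown libraries Plxna3 and Efna5 lay above scramble and Robo3 and Epha8 below it, each without overlap. Efnb2 and Robo2 were above scramble in 2 of the 3 libraries and below it in the second. With all libraries 0 of 68 members were called, against 0.436% of all genes, and 7 had an unadjusted p below 0.05. Members had a median log2 fold change of 0.02, against -0.23 over all genes. Median-of-ratios scaling moved the median of all genes to -0.05 and that of the members to 0.21, so that members lay about as far above the other genes under either scaling. The all-gene calls were 17 higher and 80 lower as scaled here, and 66 higher and 33 lower under that scaling, so directions in Nmnat2 knockdown are relative to the scaling.

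The 3 members with the smallest p were Plxna3, Efna5 and Robo3. Plxna3, a plexin that carries Sema3f signals with neuropilin-2, was at 16.6, 16.8 and 17 ppm in Nmnat2 knockdown libraries, against 4.46, 10.8 and 5.16 ppm in scramble libraries. The knockdown libraries, the one that stood apart included, were nearly equal and all above scramble, with a log2 fold change of 1.28 ± 0.32 (SE) and a limma adjusted p of 0.106. Efna5, a membrane-anchored ephrin that grades retinal maps in visual targets, was at 9.80, 5.14 and 9.78 ppm in Nmnat2 knockdown libraries, against 3.47, 3.68 and 2.73 ppm in scramble libraries, also without overlap. The log2 fold change of Efna5 was 1.07 ± 0.35 (SE), with a limma adjusted p of 0.168. Robo3, a divergent Robo that controls midline crossing of commissural axons, was at 46.1, 26.6 and 47.2 ppm in Nmnat2 knockdown libraries, against 55.6, 70.5 and 62.4 ppm in scramble libraries. All 3 knockdown values lay below scramble, with a log2 fold change of -0.68 ± 0.24 (SE) and a limma adjusted p of 0.208.

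Other members split within the Nmnat2 knockdown group. Efnb2 was at 43.3, 5.17 and 53.7 ppm in Nmnat2 knockdown libraries, against 12.1, 15 and 15.1 ppm in scramble libraries. Its second library lay below all scramble libraries and the other 2 well above them. Robo2 was at 249.7, 91.9 and 252 ppm in Nmnat2 knockdown libraries and at 117, 116 and 112 ppm in scramble libraries, with the same split. Nrp2, the co-receptor of Sema3f, was at 15.7, 5.01 and 17.7 ppm in Nmnat2 knockdown and at 5.45, 4.27 and 4.85 ppm in scramble libraries. Sema3f itself was at 270.2, 42.6 and 282 ppm in Nmnat2 knockdown, against 171, 162 and 193 ppm in scramble libraries, and Ntn4 was at 17.7, 1.43 and 15.6 ppm in Nmnat2 knockdown, against 9.62, 7.47 and 7.64 ppm in scramble libraries. Sema3a, which acts through neuropilin-1, split in the opposite sense, at 4.59, 19.0 and 5.25 ppm in Nmnat2 knockdown and 22.1, 17.1 and 12.4 ppm in scramble libraries. Epha8 was lower than scramble in each library, at 91.8, 31.0 and 104 ppm in Nmnat2 knockdown against 106, 120.0 and 157 ppm in scramble libraries.

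Groups did not overlap for 9 of 68 members, 4 higher (Sema4f, Efna5, Plxna3 and Unc50) and 5 lower (Sema4b, Epha8, Ephb4, Robo3 and Unc5d). That is 13.2% of the members, against 21.9% of all genes (4.73% higher and 17.2% lower). Without the second Nmnat2 knockdown library the count was 43 of 68, against 48.9% of all genes.

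Without the second Nmnat2 knockdown library 19 of 68 members were called, against 15% of all genes (7.73% higher and 7.25% lower), and the median log2 fold change of the members was 0.41, against -0.15 over all genes. Rises were seen in 18: the ligands Sema3f, Sema4c, Sema6c, Efna2, Efna5, Efnb1, Efnb2 and Ntn4, and the receptors Robo2, Nrp2, Plxna1, Plxna2, Plxna3, Epha2, Epha3, Epha4, Ephb2 and Dcc. The largest estimates were those of Efnb2, at 1.71 ± 0.23 (SE) on the log2 scale, and Nrp2, at 1.60 ± 0.42, and the smallest adjusted p was that of Robo2, at 0.000118 by limma, with a log2 fold change of 1.12 ± 0.10. Sema3a fell by 1.59 on the log2 scale. With all libraries in, 9 of these 19 had an estimate smaller than its own SE, and Sema3f and Ntn4 had the opposite sign, so these calls rest on 2 Nmnat2 knockdown libraries. In those 2 libraries the amacrine and horizontal cell markers summed to 737 and 758 ppm, and in the library left out to 326 ppm, against 321 to 345 ppm in scramble libraries. Rod markers summed to 2126, 3885 and 2127 ppm in Nmnat2 knockdown libraries against 5591 to 5995 ppm in scramble libraries, with 3 of 9 tested rod markers lower and 0 higher when all libraries were fitted. The part of these cell types in the guidance gene values was not tested.

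**Figure D3:**
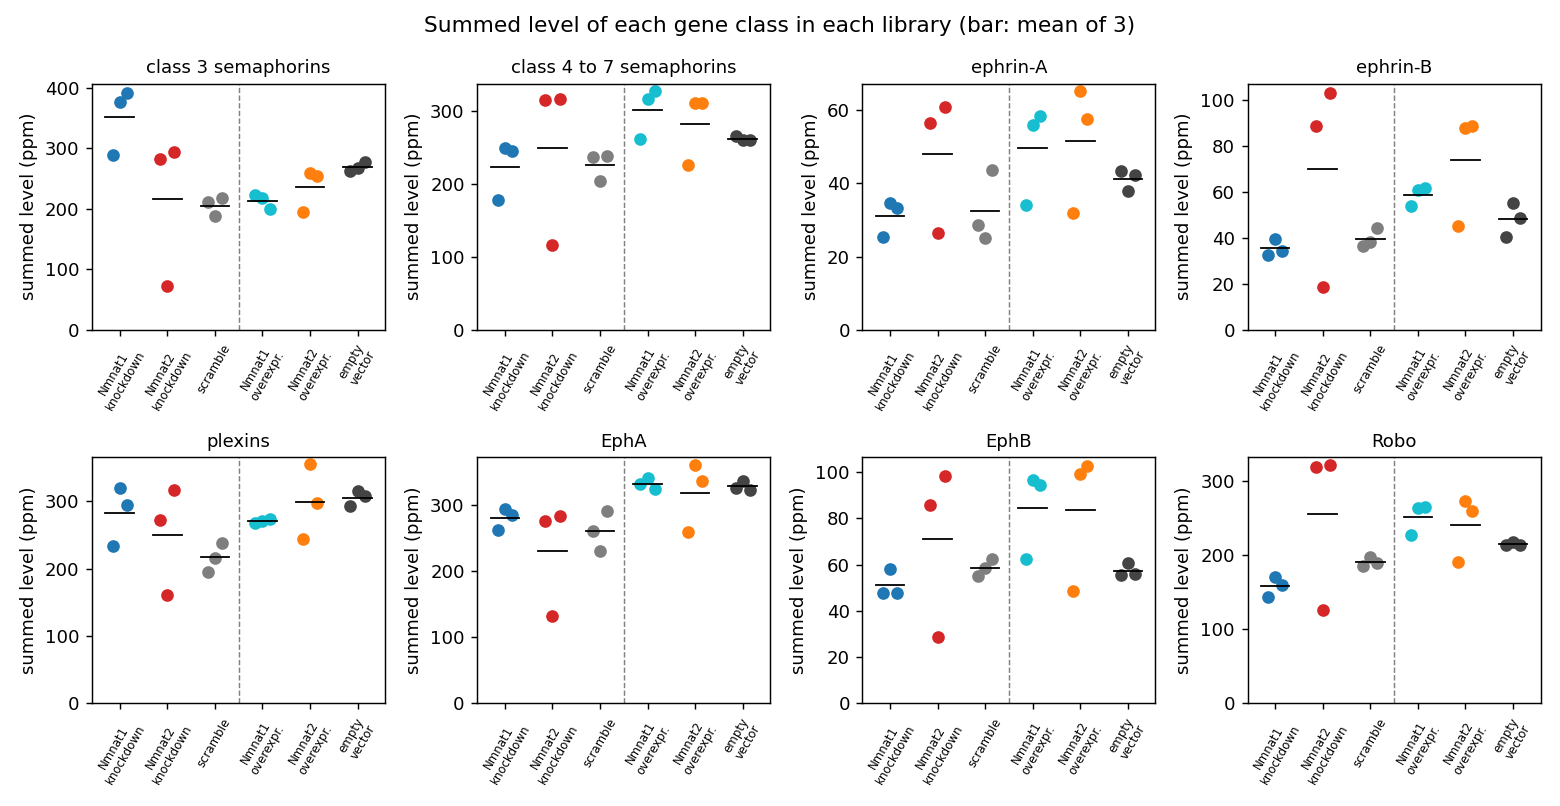
Summed level in ppm (y axes, from 0) of 8 gene families in each library, by group (x axes, knockdown table left of the dashed line), with a bar at the mean of 3 libraries. In Nmnat2 knockdown 2 libraries lie at or above the scramble libraries in 7 of these families and overlap them in EphA, with ephrin-B at 88.8 and 103 ppm against 36.4 to 44.3 ppm, while the second library is the lowest of its group in all 8.

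Set against each other, the knockdown arms differed in Sema7a, the only member called with all libraries. It was at 17.6, 18.9 and 21.5 ppm in Nmnat1 knockdown libraries, against 3.85, 3.97 and 4.88 ppm in Nmnat2 knockdown libraries, a log2 fold change of 1.96 ± 0.36 (SE) with a limma adjusted p of 0.0230. The library that stood apart lay within 1 ppm of the others of its group here. The background in this comparison was 2.06% of all genes, 299 of them higher and 159 lower in Nmnat1 knockdown (201 and 387 with median-of-ratios scaling; the higher ones were 1.34%), and 12 of 68 members had an unadjusted p below 0.05. Unc5a was next, at 13.8, 14.4 and 13.4 ppm in Nmnat1 knockdown libraries, against 4.29, 0.983 and 4.16 ppm in Nmnat2 knockdown libraries (log2 fold change 1.97 ± 0.46, limma adjusted p = 0.0583), again without overlap. Epha4 was at 1.62, 1.96 and 1.64 ppm in Nmnat1 knockdown libraries, against 15.3, 4.04 and 17.2 ppm in Nmnat2 knockdown libraries (log2 fold change -2.06 ± 0.48, limma adjusted p = 0.0604). The arms share no library in this comparison, but each shares the scramble libraries in the comparisons above.

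The call of Sema7a did not hold when single libraries other than the second Nmnat2 knockdown library were left out of the 2 arms: it was not called without any one Nmnat1 knockdown library, nor without the first or the third Nmnat2 knockdown library. Its log2 fold change without the second Nmnat2 knockdown library was 1.92 ± 0.37 (SE), with a limma adjusted p of 0.00686. In that fit 22 of 68 members were called, against 13.1% of all genes (6.28% higher and 6.78% lower). The 4 higher in Nmnat1 knockdown were Sema3a, Sema7a, Unc5a and Epha8. The 18 lower in Nmnat1 knockdown were Sema4c, Sema5a, Sema6a, Sema6c, Efna5, Efnb1, Efnb2, Robo1, Robo2, Nrp2, Plxna2, Dcc, Epha2, Epha3, Epha4, Ephb1, Ephb3 and Ephb6, with Epha4 at -2.65 ± 0.33 (SE) and Efnb2 at -2.55 ± 0.23 on the log2 scale. With all libraries in, 7 of these 22 had an estimate smaller than its own SE, and Sema4c had the opposite sign. Groups did not overlap for 16 of 68 members with all libraries, 8 higher and 8 lower, against 25.4% of all genes (19% higher and 6.37% lower). Without the second Nmnat2 knockdown library they did not overlap for 50 of 68, against 50.7%.

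Sequence just upstream of the start is shown for Sema7a, Unc5a and Epha4, the 3 members with the smallest p between the knockdown arms, 2 of them higher and 1 lower in Nmnat1 knockdown. Each is the 250 bases before the RefSeq start on GRCm38.p6, read 5′ to 3′ on the gene's strand, and lies directly upstream of the gene as annotated in GENCODE M21. Sema7a lies on chr9:57939862-57940111 (plus strand), Unc5a on chr13:54949161-54949410 (plus strand) and Epha4 on chr1:77515089-77515338 (minus strand). Capitals mark the letters GGGCGG, the core of a GC box, and CANNTG, an E-box, searched on both strands.
Sema7a: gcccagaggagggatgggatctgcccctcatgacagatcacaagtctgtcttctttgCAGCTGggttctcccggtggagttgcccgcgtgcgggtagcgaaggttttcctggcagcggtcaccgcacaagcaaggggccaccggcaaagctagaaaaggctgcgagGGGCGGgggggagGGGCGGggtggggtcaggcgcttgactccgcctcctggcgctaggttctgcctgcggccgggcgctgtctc
Unc5a: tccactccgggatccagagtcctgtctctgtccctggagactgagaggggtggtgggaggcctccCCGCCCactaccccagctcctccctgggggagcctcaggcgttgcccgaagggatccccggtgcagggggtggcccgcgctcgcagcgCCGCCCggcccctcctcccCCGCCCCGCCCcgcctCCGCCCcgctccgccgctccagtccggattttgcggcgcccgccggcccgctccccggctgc
Epha4: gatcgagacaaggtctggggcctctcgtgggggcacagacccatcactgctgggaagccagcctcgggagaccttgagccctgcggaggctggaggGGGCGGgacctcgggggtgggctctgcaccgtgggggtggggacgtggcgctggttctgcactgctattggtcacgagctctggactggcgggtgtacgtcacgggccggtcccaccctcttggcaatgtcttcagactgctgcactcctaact
GGGCGG occurred 2 times upstream of Sema7a, 5 times upstream of Unc5a, all on the opposite strand and 2 of them overlapping by 1 base, and 1 time upstream of Epha4. CANNTG occurred 1 time upstream of Sema7a and 0 times in the other 2. TAATCC, the core letters bound by the photoreceptor factors Crx and Otx2, occurred in 0 of the 3. Taking the first listed promoter of each of 27025 genes, GGGCGG was found in 32.9%, CANNTG in 66.0% and TAATCC in 6.38%. Of 62 members with a listed promoter, 45 held GGGCGG, 29 held CANNTG and 2 held TAATCC. The 27025 genes were not limited to protein-coding genes, as the members are, so the 2 sets are not alike. A match is a match of letters and no more.

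Overexpression of Nmnat1 was accompanied by lower Sema7a and Ntng2 and higher Nrp2 than in the empty vector libraries, each without overlap, but 0 of 65 members were called, against 0.121% of 20725 genes, 19 higher and 6 lower (8 and 1 with median-of-ratios scaling). At an unadjusted p below 0.05 there were 11 members. The 65 members had a median log2 fold change of 0.09, against -0.04 over all genes.

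Sema7a was at 8.41, 9.04 and 9.88 ppm in Nmnat1 overexpression libraries, against 14.9, 15.3 and 14.7 ppm in empty vector libraries. The groups are far apart for their spread, with a log2 fold change of -0.66 ± 0.18 (SE) and a limma adjusted p of 0.207. Ntng2 was at 53.0, 45.0 and 37.1 ppm in Nmnat1 overexpression libraries, against 64.7, 70.4 and 63.2 ppm in empty vector libraries (log2 fold change -0.56 ± 0.16, limma adjusted p = 0.233). Nrp2 lay the other way, at 7.40, 11.5 and 10.5 ppm in Nmnat1 overexpression libraries and 3.92, 3.17 and 3.39 ppm in empty vector libraries. All 3 overexpression values lay above the highest control, with a log2 fold change of 1.25 ± 0.36 (SE) and a limma adjusted p of 0.243.

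Groups did not overlap for 20 of 65 members, 14 higher and 6 lower, which is 30.8% against 17.8% of all genes (7.74% higher and 10.1% lower). The 14 were Sema4g, Sema5a, Sema6a, Efna5, Efnb2, Efnb3, Ntn4, Nrp1, Nrp2, Robo1, Robo3, Epha3, Ephb3 and Ephb6, and the 6 were Sema3f, Sema7a, Ntng2, Plxnb1, Plxnb2 and Unc5d. Without the 3 libraries numbered 1, groups did not overlap for 38 of 65, against 54.3% of all genes.

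Without the 3 libraries numbered 1, 12 of 65 members were called, against 8.04% of all genes (4.43% higher and 3.61% lower). The 9 that rose were Sema5a, Sema5b, Sema6a, Efna5, Nrp2, Robo3, Ephb2, Ephb3 and Dcc. The largest were Nrp2, with a log2 fold change of 1.48 ± 0.20 (SE), and Ephb3, with 1.36 ± 0.16. Ephb3 was at 9.92, 21.6 and 20.9 ppm in Nmnat1 overexpression libraries, against 9.52, 7.81 and 7.53 ppm in empty vector libraries, so that the first library of each group was close to the other. The 3 that fell were Ntng2 (-0.69 ± 0.11), Plxnb2 (-0.44 ± 0.08) and Sema3f (-0.40 ± 0.07). Sema3f was at 207, 209 and 186 ppm in Nmnat1 overexpression libraries, against 246, 256 and 264 ppm in empty vector libraries. All 12 had the same sign with all libraries in.

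In Nmnat2 overexpression libraries Sema7a and Ntng2 lay below the empty vector libraries as well, and Robo1 above them. Again 0 of 65 members were called, against 0.55% of all genes, and 10 had an unadjusted p below 0.05. The median log2 fold change of members was 0.20, against 0.06 over all genes. Both overexpression arms are set against the same 3 empty vector libraries, so their likeness is not independent.

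Sema7a was at 7.22, 8.03 and 9.13 ppm in Nmnat2 overexpression libraries, against 14.9, 15.3 and 14.7 ppm in empty vector libraries (log2 fold change -0.81 ± 0.18, limma adjusted p = 0.0867). All 3 overexpression values lay below all controls. Robo1, a Slit receptor, was at 20.9, 21.3 and 21.9 ppm in Nmnat2 overexpression libraries, against 11.8, 12.9 and 13.2 ppm in empty vector libraries (log2 fold change 0.72 ± 0.17, limma adjusted p = 0.106). Its libraries were close together within each group and the groups lay apart. Ntng2 was at 37.1, 50.0 and 50.1 ppm in Nmnat2 overexpression libraries, against 64.7, 70.4 and 63.2 ppm in empty vector libraries (log2 fold change -0.53 ± 0.16, limma adjusted p = 0.226).

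Groups did not overlap for 9 of 65 members, against 16.3% of all genes (8.6% higher and 7.73% lower): Efna5, Efnb3, Ntng1, Robo1, Epha7 and Ephb3 higher, and Sema3f, Sema7a and Ntng2 lower. Without the 3 libraries numbered 1 it was 36 of 65, against 48.3% of all genes.

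Without the 3 libraries numbered 1, 11 of 65 members were called in the Nmnat2 overexpression comparison, against 5.9% of all genes (3.27% higher and 2.62% lower). The 10 that rose were Sema5a, Sema6a, Efnb2, Efnb3, Nrp2, Robo3, Ephb2, Ephb3, Ephb6 and Dcc, with Ephb6 at 1.44 ± 0.23 (SE) and Nrp2 at 1.30 ± 0.20 on the log2 scale. Ephb6 was at 7.47, 18.8 and 22.4 ppm in Nmnat2 overexpression libraries, against 7.92, 6.95 and 6.89 ppm in empty vector libraries. Its first library lay among the controls and the other 2 far above. Sema7a fell, by 0.74 on the log2 scale. All 11 had the same sign with all libraries in, 1 of them, Robo3, with an estimate below its own SE.

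Photoreceptor and amacrine markers moved in the same libraries. Rod markers summed to 4987, 2899 and 2931 ppm in Nmnat1 overexpression and to 3830, 2845 and 2834 ppm in Nmnat2 overexpression libraries, against 5777 to 6118 ppm in empty vector libraries. Amacrine and horizontal cell markers summed to 367 to 516 ppm in Nmnat1 overexpression and 309 to 475 ppm in Nmnat2 overexpression libraries, against 261 to 281 ppm in empty vector libraries. Among them Calb2 averaged 116 ppm in Nmnat1 and 102 ppm in Nmnat2 overexpression, against 39.6 ppm in empty vector libraries. Slc6a9 lay the other way, with means of 127 and 134 ppm against 154 ppm. With all libraries, 0 of 9 tested rod markers and 0 of 12 tested amacrine and horizontal markers were called in Nmnat1 overexpression, and 1 rod marker fell and 2 amacrine and horizontal markers rose in Nmnat2 overexpression. Of 10 tested cone markers, 0 were called in Nmnat1 overexpression with all libraries, and 3 fell and 0 rose in Nmnat2 overexpression. The other rod, amacrine and horizontal marker calls depend on leaving libraries out. In the fit without the libraries numbered 1, 7 of 9 tested rod markers fell in each arm and 0 rose. Of 12 tested amacrine and horizontal markers, 7 rose in each arm and 0 fell. Of the 10 cone markers, 3 fell in each arm and 0 rose. The shares called among all genes in that fit were 8.04% in Nmnat1 and 5.9% in Nmnat2 overexpression. Of 15 tested Müller glia and progenitor markers, 0 were called in either arm with all libraries. Without the libraries numbered 1, 7 rose in each arm, and 1 fell in Nmnat1 and 0 in Nmnat2 overexpression. Ganglion cell markers summed to 60.4 to 63.0 ppm in Nmnat1 overexpression and 58.0 to 68.7 ppm in Nmnat2 overexpression libraries, against 37.6 to 42.6 ppm in empty vector libraries, with Pou4f2 at or below 0.548 ppm in all 9. Of 11 tested, 0 were called in Nmnat1 overexpression and 1 rose in Nmnat2 overexpression with all libraries, and without the libraries numbered 1 there were 2 higher and 1 lower, and 3 higher and 0 lower. Most of the higher sum lay in Ebf1, with means of 11.2 ppm in Nmnat1 overexpression and 11.3 ppm in Nmnat2 overexpression against 4.51 ppm in empty vector libraries, and in Ebf3, with 16.8 ppm in Nmnat1 overexpression and 15.4 ppm in Nmnat2 overexpression against 5.60 ppm in empty vector libraries. Isl2 averaged 3.81 ppm in Nmnat1 overexpression and 5.41 ppm in Nmnat2 overexpression against 7.0 ppm in empty vector libraries. Calb2, Slc6a9, Ebf1, Ebf3 and Isl2 were picked out after their values were seen. The part of these cell types in the guidance gene values was not tested.

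**Figure D4:**
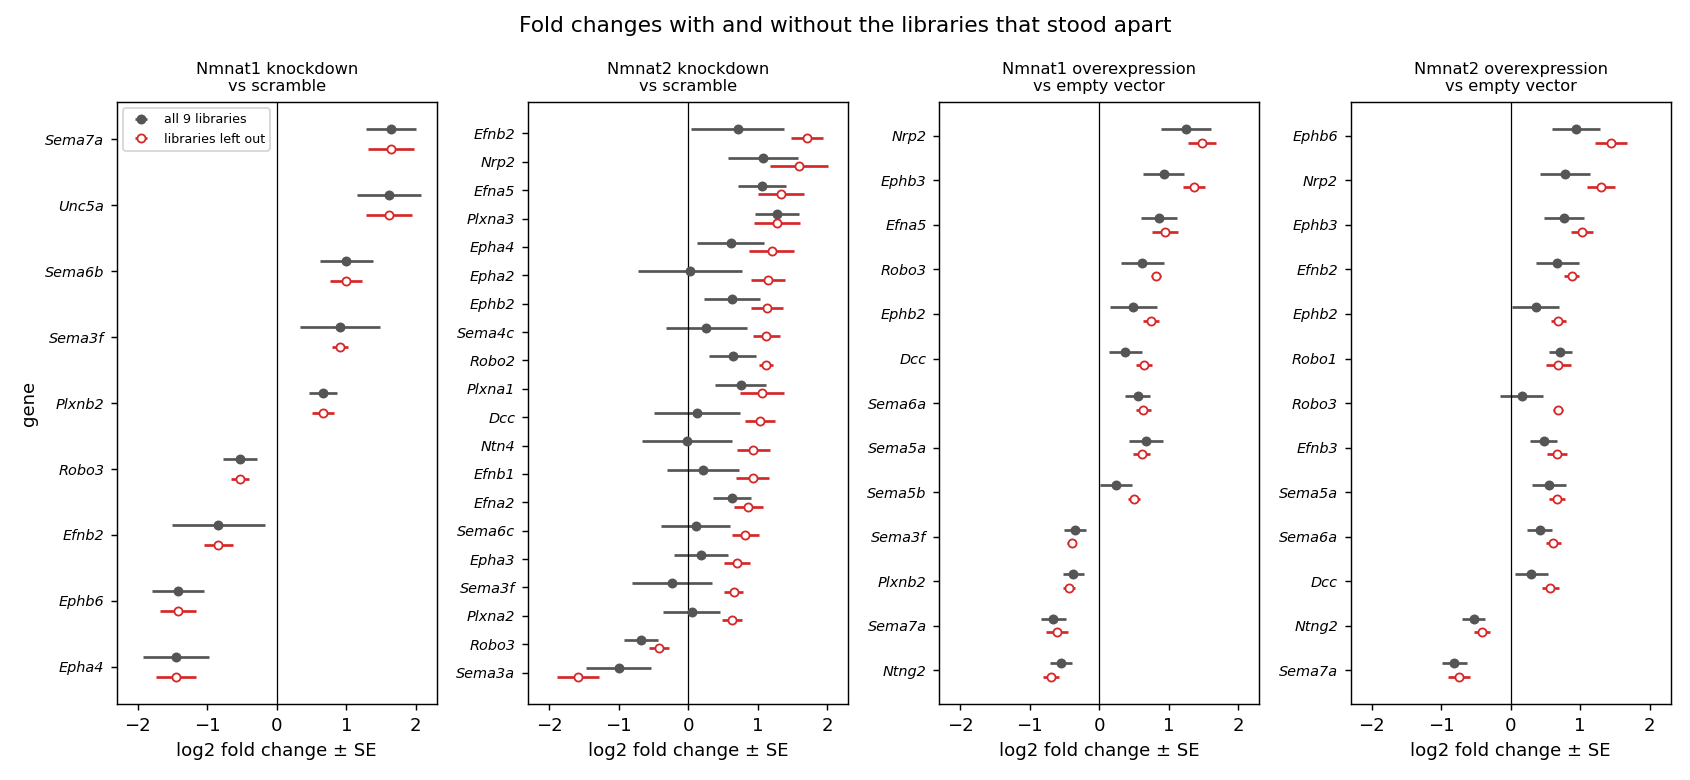
Log2 fold change with its SE (x axes) of members called without the libraries that stood apart, together with the 3 members of smallest p in each comparison (y axes), in 4 comparisons against the control of the same table. Filled grey points use all 9 libraries and open red points leave out the second Nmnat2 knockdown library (left pair) or the 3 libraries numbered 1 (right pair). Sema3f and Ntn4 change sign in Nmnat2 knockdown.

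No member was called between the overexpression arms, with all libraries or without those numbered 1, against 0.0193% and 0.183% of all genes, and 1 of 65 had an unadjusted p below 0.05 with all libraries. The smallest p belonged to Epha7, an Eph receptor for ephrin-A ligands, at 6.26, 5.26 and 3.99 ppm in Nmnat1 overexpression libraries, against 10.6, 6.84 and 7.70 ppm in Nmnat2 overexpression libraries (log2 fold change -0.60 ± 0.25, limma adjusted p = 0.953). Robo1 was at 15.9, 20.4 and 14.2 ppm in Nmnat1 overexpression libraries, against 20.9, 21.3 and 21.9 ppm in Nmnat2 overexpression libraries (log2 fold change -0.34 ± 0.17). Sema3b stood near the limit of the filter, at 1.23, 0.75 and 0.64 ppm in Nmnat1 overexpression against 1.74, 2.92 and 1.42 ppm in Nmnat2 overexpression libraries. Groups did not overlap for 6 of 65 members, 1 higher and 5 lower, against 8.34% of all genes (3.12% higher and 5.22% lower). Without the libraries numbered 1 they did not overlap for 25 of 65, against 44.3%.

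Several members marked the spread within families and were not called in any of the 6 comparisons with all libraries. Efna2, an ephrin-A, was at 30.5, 18.9 and 31.4 ppm in Nmnat2 knockdown libraries, against 13.9, 15.9 and 20.5 ppm in scramble libraries, overlapping by its second library. Sema5b, which with Sema5a keeps retinal neurites out of the outer retina, was at 54.0, 13.8 and 53.9 ppm in Nmnat2 knockdown, against 26.0, 40.8 and 36 ppm in scramble libraries. The second library was again below the controls and the others above. Ephb2, an EphB receptor, was at 39.5, 14.1 and 44.4 ppm in Nmnat2 knockdown and 21, 13 and 23.1 ppm in scramble libraries. It was also at 24.4, 46.5 and 51.8 ppm in Nmnat1 overexpression and 20.1, 44.4 and 50.0 ppm in Nmnat2 overexpression libraries, against 24.8, 30.6 and 27.3 ppm in empty vector libraries. In each overexpression arm the first library was lower than all controls and the other 2 were higher.

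Robo3 was at 82.3, 106 and 113 ppm in Nmnat1 overexpression and 37.9, 99.8 and 98.8 ppm in Nmnat2 overexpression libraries, against 70.0, 63.7 and 59.9 ppm in empty vector libraries. In the Nmnat1 arm all 3 libraries were above the controls and in the Nmnat2 arm the first was below them. Efnb2 was at 24.2, 28.9 and 28.5 ppm in Nmnat1 overexpression and 17.9, 40.0 and 46.3 ppm in Nmnat2 overexpression libraries, against 14.9, 23.7 and 22.3 ppm in empty vector libraries. Unc5a, high in Nmnat1 knockdown, overlapped between overexpression groups, at 4.47, 3.56 and 5.01 ppm in Nmnat1 overexpression and 2.22, 4.65 and 5.17 ppm in Nmnat2 overexpression, against 6.44, 5.56 and 4.98 ppm in empty vector libraries.

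Low members varied most for their level. Slit1, a second Slit, was at 1.31, 0.119 and 0.489 ppm in Nmnat1 knockdown and 1.22, 0.343 and 2.38 ppm in Nmnat2 knockdown, against 1.02, 3.30 and 6.19 ppm in scramble libraries. Sema3d, a secreted semaphorin, was at 1.45, 2.42 and 4.55 ppm in Nmnat1 knockdown and 1.2, 5.68 and 1.78 ppm in Nmnat2 knockdown, against 10.3, 1.97 and 5.97 ppm in scramble libraries. Both overlapped between groups. Plxnd1, the receptor of Sema3e, ranged from 0.337 to 9.87 ppm over the 18 libraries, Ntng1 from 0.0704 to 4.95 ppm and Unc5cl from 0.0903 to 2.97 ppm. Among members with no account above, Sema4d averaged 32.2 ppm (24.3 to 46.4 ppm over 18 libraries) and Unc5c 7.44 ppm (3.52 to 11.9 ppm). Efna4, Sema4a, Sema6d and Plxnc1 averaged 4.18 to 4.78 ppm. Slit3, Sema3c, Sema3e, Plxna4, Epha1, Epha6 and Unc5b averaged 0.935 to 2.10 ppm.

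Some members differed little between groups. Epha5 was at 72.8 to 77.1 ppm in Nmnat1 knockdown, 76.9 to 93.7 ppm in Nmnat2 knockdown and 65.8 to 92.7 ppm in scramble libraries, with estimates of -0.09 ± 0.18 and 0.11 ± 0.18 (SE) on the log2 scale for the knockdowns. Robo2 was at 128 to 137 ppm in Nmnat1 overexpression, 131 to 151 ppm in Nmnat2 overexpression and 131 to 140.5 ppm in empty vector libraries, with estimates of -0.03 ± 0.09 and 0.02 ± 0.09. Slit2, a repellent of retinal axons, was at 15.3 to 22.8 ppm in Nmnat1 knockdown, 16.7 to 26.0 ppm in Nmnat2 knockdown and 16.0 to 19.5 ppm in scramble libraries. Some other members of widely spread group means were too low or too uneven for a firm statement: Efna1 ranged from 1.63 to 5.29 ppm in Nmnat1 knockdown, from 0.417 to 13 ppm in Nmnat2 knockdown and from 2.47 to 16.7 ppm in scramble libraries.

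Genes that work with these ligands and receptors were read from 3 lists: 50 signalling intermediates, 35 other guidance cues and receptors, and 20 retinal regulators of guidance genes. In Nmnat1 knockdown against scramble, 0 of 49, 0 of 33 and 0 of 16 tested genes were called with all libraries. In Nmnat2 knockdown against scramble 1 intermediate rose, the actin regulator Evl, at 231, 259 and 251 ppm in Nmnat2 knockdown libraries against 146, 130.5 and 147 ppm in scramble libraries (log2 fold change 0.80 ± 0.14, limma adjusted p = 0.0484). The share called among all genes was 0.436%. The Evl call did not hold when any single library other than the second Nmnat2 knockdown library was left out. In each of those fits 0 of all 22233 genes were called in this comparison. The same was so with 2 groups in the fit and with no trend. Between the knockdown arms 5 listed genes were called, of 49, 33 and 16 tested in the 3 lists, against 2.06% of all genes. Srgap2, a partner of Robo signalling, was at 50.1, 48.0 and 48.9 ppm in Nmnat1 knockdown against 21.8, 30.1 and 22.8 ppm in Nmnat2 knockdown libraries. Ptpro, a receptor phosphatase that acts on Eph receptors, was also higher, by 1.54 ± 0.31 (SE) on the log2 scale. The actin-severing Cfl1 (-0.85), the growth cone protein Gap43 (-1.62) and the transcription factor Sox11 (-1.59) were lower in Nmnat1 knockdown.

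In overexpression, Ret, the receptor tyrosine kinase of the GDNF family, was called in both arms. It was at 33.4, 32.6 and 35.2 ppm in Nmnat1 overexpression and at 34.0, 46.0 and 43.4 ppm in Nmnat2 overexpression libraries, against 13, 10.2 and 13.6 ppm in empty vector libraries. Both arms lay above all controls, with log2 fold changes of 1.40 ± 0.16 (SE; limma adjusted p = 0.0141) and 1.67 ± 0.16 (limma adjusted p = 0.00540). In the knockdown table Ret was at 5.55, 2.72 and 6.18 ppm in Nmnat1 knockdown and 30.5, 8.43 and 31.0 ppm in Nmnat2 knockdown libraries, against 22.2, 27.6 and 29.7 ppm in scramble libraries. Sox11 was also called in Nmnat2 overexpression, at 10.7, 13.4 and 15.4 ppm against 5.68, 5.52 and 4.40 ppm in empty vector libraries (limma adjusted p = 0.0482), and stood at 10.2, 13.3 and 13.5 ppm in Nmnat1 overexpression libraries, where the difference between the arms was not called. Without the libraries that stood apart, called intermediates numbered 6 higher and 3 lower in Nmnat1 knockdown, 12 and 1 in Nmnat2 knockdown, 11 and 0 in Nmnat1 overexpression and 13 and 0 in Nmnat2 overexpression, of 49 tested. The shares called among all genes in those fits were 8.11%, 15%, 8.04% and 5.9%, in the same order.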

How the data were processed

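Total RNA (1 ng) of EGFP-sorted retinal cells was amplified with SMART-Seq v4 and made into libraries with Nextera DNA Flex, which do not mark strand, per the labels' protocols. Per the submitters' processing notes, the tools were Salmon 0.11.3 and sleuth 0.30.0 and the build was GRCm38.p6. The authors deposited 2 tables of length-scaled signal per gene, named TPM, whose columns sum to 14.4 to 29.6 times 1000000 (knockdown) and 17.3 to 26.2 times 1000000 (overexpression). Their normalization is not given in the sources used here. After a test of whether low values step in whole reads (tolerance 0.1), 72.5% to 82.1% of knockdown and 79.3% to 82.8% of overexpression values did so, against 19.5% to 21.7% with gene lengths shuffled, and relative depth ranged 0.738 to 1.30 and 0.807 to 1.13 within a table. No count test was run. The last, incomplete line of each table was left out.

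Values were rescaled to ppm (share of the column sum × 1000000) and tested with limma 3.58.1 (R 4.3.3) on log2(ppm + 1), with a mean-variance trend, 3 groups in one fit per table, genes at 1 ppm or more in at least 3 of 9 libraries, and Benjamini-Hochberg adjustment over all genes at 0.05, two-sided. The step was tested on simulated data. No test crosses the tables, which were made apart. Members came from the tables' own symbols, and 72 of 72 identifiers were found in GENCODE M21. Promoters came from RefSeq. The members, gene lists and tests were chosen with earlier results of these data known, and the marker and pathway lists support nothing by themselves. Genes given in full are those called, the 3 of smallest p per comparison, and the highest and most spread member of each family. Those named from fits without the libraries that stood apart, and the counts of groups without overlap in those fits, were chosen after their values were seen.

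Of 18 samples, 3 per group, 1 Nmnat2 knockdown and 1 Nmnat2 overexpression sample carry a title that names Nmnat3. Their other labels name Nmnat2 and were followed. Knockdown columns identify the group but not the sample, and 0 columns of sample values were left unused. 0 pairs of libraries of a group were identical or alike within sampling noise (chi-square per degree of freedom 3.88 to 46.3). In the overexpression table the deviations of same-numbered libraries of the arms had correlations of 0.461, 0.285 and 0.139. Libraries numbered 2 and 3 also correlated across numbers (0.242 and 0.165). The values thus set the libraries numbered 1 apart, but do not show that numbers 2 and 3 are paired. Against empty vector not all same-numbered correlations exceeded 0.1 (0.0664 and 0.0271 for number 3). As alternatives, other pseudocounts, filters and scalings were tried, as were other fits (2 groups, no trend, array weights, replicate block) and left-out libraries.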

Additional observations from a re-analysis of the deposited data

How the results depend on the processing

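With all libraries, called members numbered 0 of 68 in both knockdown comparisons with scramble, 1 between the knockdown arms and 0 of 65 in the 3 overexpression comparisons. Array weights, which give libraries that stand apart less weight, gave 4 (Nmnat1 knockdown), 22 (Nmnat2 knockdown), 33 (knockdown arms), 12 (Nmnat1 overexpression) and 9 (Nmnat2 overexpression). With only 2 groups in the fit, Nmnat1 knockdown gave 4. Between the knockdown arms the count was 2 with a pseudocount of 5, 3 with at least 5 ppm in 3 libraries, 3 with median-of-ratios scaling, 3 with quantile normalization and 0 with the deposited values and a pseudocount of 20. In Nmnat2 overexpression it was 1 with at least 5 ppm. Without the 3 libraries numbered 1 it was 12 in Nmnat1 and 11 in Nmnat2 overexpression. Leaving out single libraries gave 0 to 9 members in Nmnat1 knockdown, 0 to 19 in Nmnat2 knockdown, 0 to 22 between the knockdown arms, 0 to 2 in each overexpression arm and 0 between the overexpression arms. The upper ends in the knockdown table come without the second Nmnat2 knockdown library. For the targeted genes the log2 fold change then ranged from -1.26 to -1.11 (Nmnat1 knockdown), -1.30 to -0.22 (Nmnat2 knockdown), 9.43 to 9.89 (Nmnat1 overexpression) and 12.71 to 13.10 (Nmnat2 overexpression). Nmnat1 in Nmnat1 knockdown was called without the second Nmnat2 knockdown library, with a limma adjusted p of 0.00410. With the replicate block, 0 members were called in each overexpression comparison, while calls among all genes numbered 187 and 269 against empty vector, against 25 and 114 without it, and 4 with and without it between the arms. No replicate block was fitted in the knockdown table: its column numbers are not tied to labelled samples, and the deviations of same-numbered libraries had correlations of -0.038 to 0.030. In Nmnat2 knockdown against scramble, log2 fold changes changed sign for Epha2 (-0.058 with a pseudocount of 0.1, -0.046 with the deposited values), Ntn4 (0.13 with a pseudocount of 5, 0.17 with median-of-ratios scaling, 0.16 with quantile normalization, 0.96 with array weights), Plxna2 (-0.067 with the deposited values), Sema3f (0.0042 with median-of-ratios scaling, 0.58 with array weights) and Sema6c (-0.0063 with the deposited values). Between the knockdown arms they did for Plxna2 (0.074 with the deposited values) and Sema4c (-0.12 with median-of-ratios scaling, -0.029 with quantile normalization, -0.66 with array weights), and in Nmnat2 overexpression for Robo3 (-0.060 with the deposited values). Leaving out single libraries, the sign also changed in Nmnat2 knockdown against scramble for Dcc (-0.37 to 1.04), Efnb1 (-0.16 to 0.93), Epha2 (-0.55 to 1.15), Epha3 (-0.11 to 0.70), Ntn4 (-0.53 to 0.94), Plxna2 (-0.28 to 0.63), Sema3f (-0.69 to 0.66), Sema4c (-0.18 to 1.13) and Sema6c (-0.28 to 0.82), between the knockdown arms for Dcc (-1.05 to 0.36), Efnb1 (-0.93 to 0.16), Epha3 (-0.81 to 0.00024), Plxna2 (-0.59 to 0.32), Sema4c (-0.76 to 0.55) and Sema6c (-0.82 to 0.28), and in Nmnat2 overexpression for Robo3 (-0.069 to 0.62). The cause was not tested. Over 80 gene results and all alternatives, 1373 values kept direction and side of the threshold, 148 passed it, 6 lost it and 50 changed sign. The 80 were the members of smallest p in each comparison and those called without the libraries that stood apart. Of the 148, 46 came without the second Nmnat2 knockdown library, 23 without the 3 libraries numbered 1 and 62 with array weights. The 46 and the 23 follow from how the 80 were chosen, so the tally does not measure stability.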
